A study of Rattus norvegicus with 24 samples.

Results

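The comparison set the hypothalamus of juvenile rats, 26 days old, against that of early juvenile rats, 21 days old. Its members were 9 of the 24 arrays of the series, 5 from early juvenile rats (animals 164, 165, 166, 167 and 168) and 4 from juvenile rats (animals 1, 2, 3 and 5), each array holding the RNA of 1 animal. All were Sprague Dawley rats, an outbred strain, and no treatment or altered gene is named for either group. The other arrays came from the remaining juvenile rat (animal 4) and from 3 later stages. These were late juvenile rats, 29 days old, early proestrus rats, 29 to 32 days old, and late proestrus rats, 31 days old. Early proestrus thus overlapped both other later stages in age. Juvenile rat 4 was left out because its array detected 19.5% of probes, against 47.2% to 50.3% on the 9 arrays compared. A probe was tested if its detection p-value, which ranks its signal against background, was under 0.05 on at least 4 of the 9 arrays, and 11231 of 22523 probes met that.

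The hypothalamus drives the reproductive axis through neurons that release gonadotropin-releasing hormone, which acts on the pituitary, which in turn acts on the gonads. Before puberty this release is held low, and both neuronal and glial inputs to these neurons change as the animal matures. The juvenile period lies between weaning and the first proestrus, the stage of the cycle that leads to ovulation, and in rats it is also a time of continuing myelination and synapse maturation in the brain. In whole hypothalamus, fewer cells of a type and less RNA per cell cannot be told apart.

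The probes carry no gene names in the deposited files, and a search of the RefSeq table of rat genes (assembly GRCr8) for the 22523 probe identifiers gave 0 matches. Transcripts are therefore given by Illumina probe identifier. For that reason no pathway, cell type or tissue marker is described, and the labelled tissue was not checked against its markers. By the rule for named probes, the largest 2 rises and the largest 2 falls among probes past the threshold are named.

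A difference in brightness between the groups was not detectable. Mean raw signal was 875.7 ± 71.0 (SD, n = 5) on early juvenile arrays and 835.3 ± 220.6 (SD, n = 4) on juvenile arrays (difference -40.4, exact two-sided permutation test, p = 0.841, the smallest p allowed being 0.00794). The detected share of probes was 49.4% ± 1.14 (SD, n = 5) and 48.3% ± 0.869 (SD, n = 4), respectively (difference -1.11 percentage points, exact two-sided permutation test, p = 0.151). Without early juvenile rat 168 the detected share was lower on every juvenile array than on every early juvenile array left. The difference there was -1.59 percentage points (exact two-sided permutation test, p = 0.0286, the smallest p allowed). The large spread on the juvenile side came from rat 5, whose array had a mean signal of 513.7, while juvenile rats 1, 2 and 3 lay at 877.0, 946.1 and 1004.4. No pair of arrays held identical values. Animal numbers and age both separate the groups and no slide or scan date is given in the sources used here, so age and any handling particular to 1 group cannot be told apart.

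Juvenile rat 5 stood apart from the rest before any test of age. On the first principal component of the 11231 probes, with 36.6% of the variance, it scored 40.2, and the other 8 arrays scored between -13.1 and 8.42. The second component, with 21.6% of the variance, held the age groups apart: early juvenile arrays scored from -12.7 to -6.57 and juvenile arrays from 5.95 to 16.5, with rat 5 the lowest of the juvenile animals. For 435 probes the level in rat 5 was more than 1 log2 unit from the median of the other 3 juvenile animals. The corresponding number was 28, 32 and 40 for juvenile rats 1, 2 and 3 and lay between 5 and 39 for the early juvenile rats. Counts over all probes are therefore also given without rat 5, with normalization and filter repeated on the 8 other arrays. The spread among animals without rat 5 is the exception. It was taken from values normalized and filtered with rat 5 included.

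**Figure D1:**
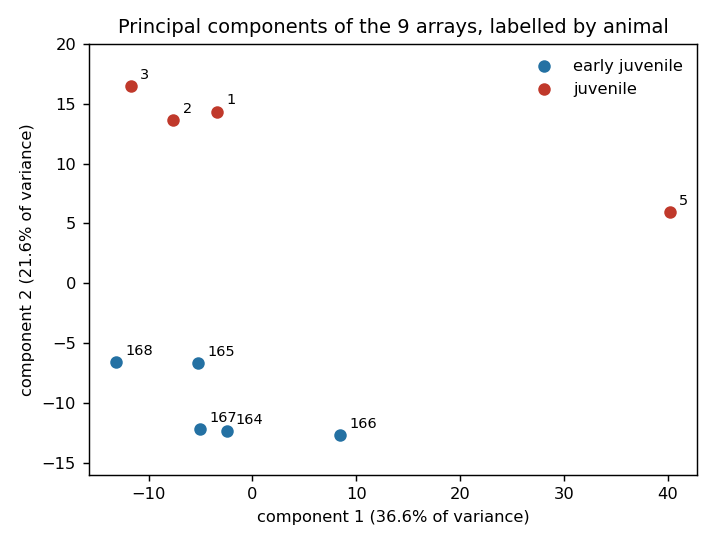
Scores of the 9 arrays on the first principal component (horizontal axis) and the second (vertical axis), both without units, 1 point per animal with its number. Juvenile rat 5 sits alone at 40.2 on the first component, and the second component separates all juvenile arrays, from 5.95 upward, from all early juvenile arrays, at -6.57 or below.

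Between day 21 and day 26 few transcripts passed the test. Of the 11231 probes, 157 (1.4%) differed at a Benjamini-Hochberg adjusted p under 0.05 in limma, of which 75 (0.668%) were higher and 82 (0.73%) lower in juvenile rats. With each array scaled to a common median in place of quantile normalization, which gives all arrays 1 distribution, limma called 96 probes, 13 higher and 83 lower, so the even split of directions was not kept under that scaling. Nor was it kept under quantile normalization without some single animals, with 14 higher and 54 lower without juvenile rat 2, 7 and 23 without juvenile rat 1, 6 and 15 without early juvenile rat 164, and 3 and 11 without early juvenile rat 167. Without juvenile rat 5 the test called 563 of 11078 probes (5.08%), 248 (2.24%) higher and 315 (2.84%) lower, and 153 of the 157 were called there with the same direction. Each fit with 1 array left out still asked for detection on at least 4 arrays. Without a juvenile rat, probes detected only at day 26 could thus not enter, while probes detected only at day 21 could. How far this moved the split of directions was not tested. On all 9 arrays an unadjusted p under 0.05 in limma was reached by 1890 probes (16.8%).

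The size of the called differences was modest. The median called rise was 0.59 on the log2 scale, a 1.51-fold change, with a range from 0.34 to 1.24. The median called fall was -0.70, a 1.62-fold change, with a range from -0.34 to -1.88. Over all probes tested the median difference was close to 0 (-0.0015), where quantile normalization holds it. With each array scaled to a common median it was -0.067. After quantile normalization the median absolute difference was 0.12, about the size of the median standard error of 0.12. The falls reached farther than the rises. A fall of at least 1 log2 unit, a 2-fold change, was called for 18 probes and a rise of that size for 5. Another 12 probes differed by more than 1 log2 unit without passing, with a median standard error of 0.357 against 0.185 for the 23 that passed. Without rat 5 the corresponding counts were 21 called falls, 7 called rises and 10 probes that did not pass.

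For most probes the data also set an upper limit to the difference on the normalized scale. The 95% confidence interval of the difference lay wholly within 2-fold in either direction for 10965 of the 11231 probes (97.6%), and wholly within 1.5-fold for 8640 (76.9%). Without rat 5 the shares were 97.4% and 78.9%. These intervals are per probe, with no correction for the number of probes. They hold for values after background correction, quantile normalization and an added offset, which shrinks differences of dim probes. With each array scaled to a common median the median standard error was 0.173 against 0.122, and intervals under that scaling are not given. The intervals describe RNA of the whole hypothalamus, so they set no limit on a change within a rare cell type.

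**Figure D2:**
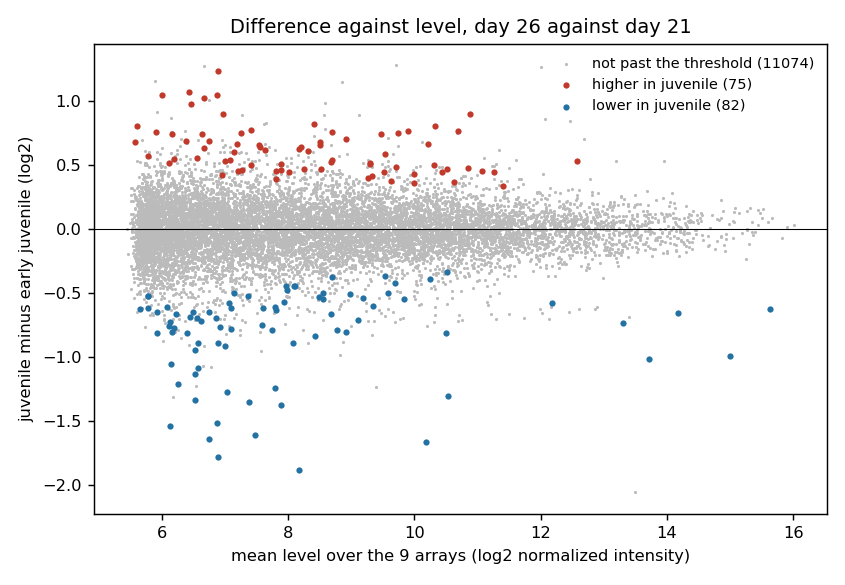
Juvenile minus early juvenile difference (log2, vertical axis) against mean level over the 9 arrays (log2 normalized intensity, horizontal axis), 1 point per probe. Red points are the 75 probes higher and blue points the 82 probes lower in juvenile rats at an adjusted p under 0.05, and grey points are the probes that did not pass. Falls reach -1.88 and rises 1.24, and most differences over 1 log2 unit lie among dim probes.

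Called probes were found at every level of brightness. When the probes were split by mean level into 4 sets of near-equal size, the dimmest set held 11 rises and 20 falls (1.1% of 2808 probes), the second 26 and 32 (2.07%), the third 25 and 19 (1.57%) and the brightest 13 and 11 (0.855%). Without rat 5 the called shares of the 4 sets, from dimmest to brightest, were 3.39%, 6.25%, 6.86% and 3.83%. The median standard error fell from 0.172 in the dimmest set to 0.0901 in the brightest, and the median absolute size of a called difference went from 0.74 to 0.60. Of the 157 called probes, 124 were detected on all 9 arrays, as were 9127 of all probes tested. The 2 age groups did not overlap for 75 of the 75 called rises and 81 of the 82 called falls. These shares are raised by the choice itself, since the probes were called for a difference between the same 2 groups. Over all probes, juvenile arrays all lay above the early juvenile arrays for 476 (4.24%) and all below for 481 (4.28%). Without rat 5 these counts were 946 (8.54%) and 972 (8.77%).

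Detection itself seldom switched between the ages. Of all probes on the array, 9127 were detected on all 9 arrays and 8884 on none of them. Only 20 probes were detected on every array of 1 age and on no array of the other, and 15 of these were detected at day 21. Of the 20, 8 passed the test, against 1.4% of all probes tested, a share raised by the choice itself, since these probes were picked for a switch between the same 2 groups. Without rat 5 the switch was seen for 39 probes, 27 of them detected at day 21. Of these 27, 15 passed, against 5.08% of all probes tested, a share raised by the choice in the same way. The rest, detected at day 26 on fewer than 4 arrays, did not meet the filter and were not tested.

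ILMN_1352660 showed the largest called fall. Its raw intensity was 746.4, 703.1, 546.1, 644.5 and 907.7 in early juvenile rats 164 to 168 and 328.9, 329.3, 337.6 and 222.4 in juvenile rats 1, 2, 3 and 5. Every early juvenile animal was thus above every juvenile animal, and all 9 arrays detected the probe. After normalization the level was 9.00 ± 0.39 (SD, n = 5) on the log2 scale at day 21 and 7.12 ± 0.17 (SD, n = 4) at day 26, a difference of -1.88 (SE 0.19, limma adjusted p = 0.00294), or 3.68-fold. The call held without each of the 9 arrays in turn, with differences from -1.73 to -1.99. Without background correction the difference was -1.15.

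ILMN_1351340 showed the second largest called fall, and it was uneven among the day 21 animals. Its raw intensity was 438.7, 468.7, 459.5 and 428.3 in early juvenile rats 164 to 167 but 237.8 in rat 168, against 211.4, 246.1, 275.0 and 173.0 in the juvenile rats. Early juvenile rat 168 therefore lay within the juvenile range, and the age groups overlapped. Only 2 of the 4 juvenile arrays detected the probe, so the size of its fall rests partly on values near background. The normalized level went from 7.68 ± 0.83 (SD, n = 5) to 5.89 ± 0.30 (SD, n = 4), a difference of -1.78 (SE 0.37, limma adjusted p = 0.0497). The call held without rat 168 (adjusted p = 0.00111) and was lost when any of the other 8 arrays was left out (adjusted p up to 0.123). Without background correction the difference was -0.76.

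ILMN_1355623 showed the largest called rise. Its raw intensity was 235.1, 281.2, 248.4, 260.9 and 251.7 in early juvenile rats 164 to 168 and 329.0, 440.1, 391.9 and 259.1 in juvenile rats 1, 2, 3 and 5. Before normalization the dim array of juvenile rat 5 fell within the day 21 range, and after it all 4 juvenile animals, at 7.33 to 7.92, were above all 5 early juvenile animals, at 6.17 to 6.49. The mean went from 6.34 ± 0.12 (SD, n = 5) to 7.58 ± 0.26 (SD, n = 4), a difference of 1.24 (SE 0.13, limma adjusted p = 0.00294), or 2.36-fold. It kept its call without each array in turn, with differences from 1.12 to 1.32. Without background correction the difference was 0.53.

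ILMN_1366573, the second largest called rise, lay close to background at day 21, where 4 of 5 arrays detected it. Its raw intensity was 226.8, 275.3, 231.3, 225.8 and 222.5 in early juvenile rats 164 to 168 and 277.7, 308.7, 418.4 and 207.1 in juvenile rats 1, 2, 3 and 5. Only after normalization did the dim array of rat 5 join the other juvenile animals above the day 21 range. The level went from 5.95 ± 0.27 (SD, n = 5) to 7.03 ± 0.40 (SD, n = 4), a difference of 1.08 (SE 0.19, limma adjusted p = 0.0345). The call held without early juvenile rat 165 and without juvenile rat 5, and was lost when any of the other 7 arrays was left out (adjusted p up to 0.0912). Without background correction the difference was 0.39.

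**Figure D3:**
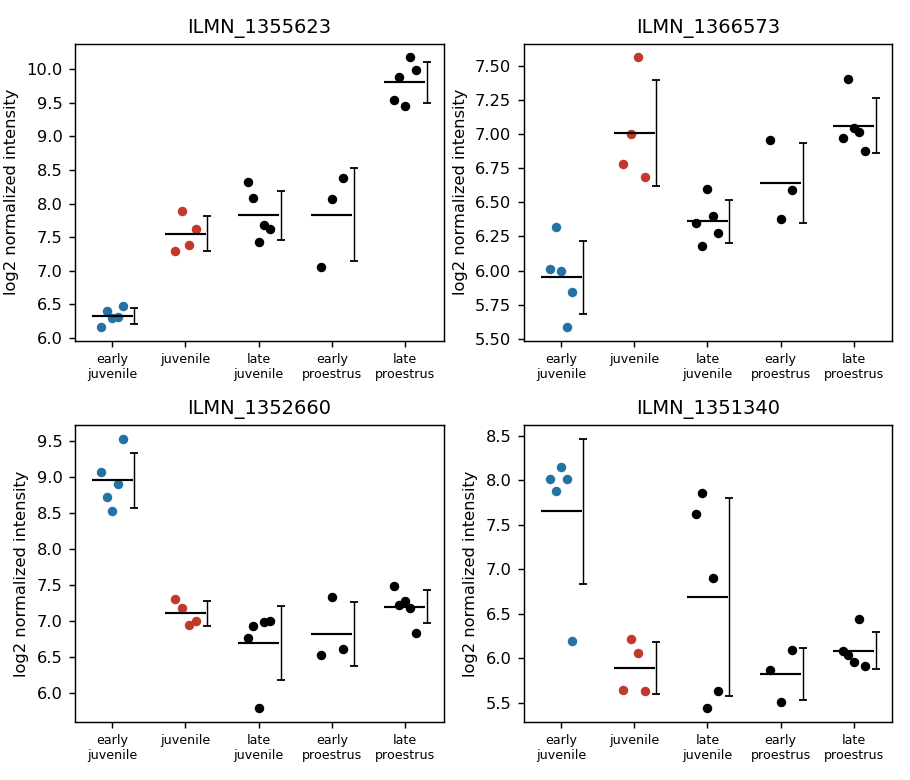
Normalized level (log2 intensity, vertical axis) of the 4 named probes on the 22 arrays with usual detection, by stage (horizontal axis), 1 point per animal, with the mean as a horizontal line and the SD as a bracket. ILMN_1352660 is high at day 21 alone, ILMN_1355623 rises again to a mean of 9.80 in late proestrus, and ILMN_1351340 shows 1 low early juvenile animal at 6.20 and a late juvenile stage spread from 5.44 to 7.86.

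The count of calls changed when single animals on either side were left out. Each such fit also had 1 array fewer. The median standard error was 0.122 with all 9 arrays, 0.106 without juvenile rat 5 and 0.127 to 0.133 without any other array. How far the smaller number of arrays alone moved the count was not tested. Leaving out 1 array gave 14 calls without early juvenile rat 167, 21 without rat 164, 74 without rat 165, 74 without rat 166 and 63 without rat 168. It gave 30 without juvenile rat 1, 68 without rat 2, 41 without rat 3 and 563 without rat 5. Of the 157 probes, 13 were called in all 9 of these fits, 2 of them higher and 11 lower in juvenile rats, while 97 kept their call in 2 or fewer. All 157 were called both with array weights, which came to 0.181 for juvenile rat 5 against 0.842 or more for the other 8 arrays and gave 799 calls, and with mean raw signal as a covariate, which gave 538. With juvenile rat 4 put back, limma called 0 of 11282 probes, with 576 at an unadjusted p under 0.05.

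**Figure D4:**
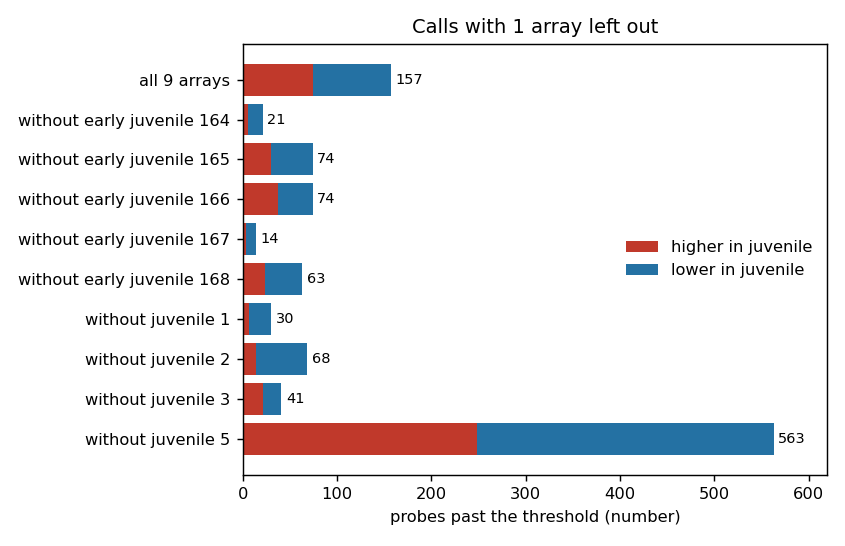
Number of probes past the threshold (horizontal axis) with all 9 arrays and with each array left out in turn, split into probes higher (red) and lower (blue) in juvenile rats. Leaving out juvenile rat 5 raises the count from 157 to 563, and leaving out any of the other 8 arrays lowers it to between 14 and 74.

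The spread among animals at day 26 rested on juvenile rat 5. The median SD over the probes tested was 0.145 among the 5 early juvenile rats and 0.207 among the 4 juvenile rats, and the juvenile SD was the larger for 7886 probes (70.2%). Without rat 5 the median SD of the 3 other juvenile rats was 0.125, and it was the larger for 4765 probes (42.4%). At equal spread an SD of 3 animals tends to come out lower than an SD of 5, and a difference in spread was not tested. The values without rat 5, and those below for pairs without it, keep the normalization and filter that included rat 5. Between 2 arrays the median absolute difference over probes was 0.123 to 0.197 for the 10 pairs of early juvenile rats and 0.136 to 0.316 for the 6 pairs of juvenile rats. For the 20 pairs across the ages it was 0.166 to 0.327, which overlapped the ranges within both ages. Without rat 5 it was 0.166 to 0.225 for the 15 pairs across the ages, which still overlapped the day 21 pairs, and 0.136 to 0.149 for the 3 juvenile pairs, all below the pairs across the ages.

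Some target identifiers have more than 1 probe on the array. Of 196 targets with several tested probes, 3 had a called probe, where 1.4% of all probes tested were called. For 1 of these both probes were called as higher in juvenile rats, with differences of 0.61 and 0.69. For the other two targets the called probe was lower, at -0.75 and -0.65, while the second probe had a difference of 0.23 and 0.17 that did not pass, so the probes of these targets disagreed. Without rat 5, 13 of 191 such targets had a called probe, where 5.08% of all probes tested were called. In 9 of the 13 the probes shared their sign. How many of all 191 targets had probes of shared sign was not counted, so the 9 have no base share beside them.

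The levels of the called probes were then read in the 3 later stages, whose animals did not enter the choice of the probes. Levels were normalized over the 22 arrays with usual detection and set against each probe's early juvenile mean, a base that all stages share. For the 75 called rises the median over the probes was 0.48 to 0.62 above that base in juvenile rats, a range fixed by their choice. In the later stages it was 0.22 to 0.45 in late juvenile rats (n = 5), 0.47 to 0.67 in early proestrus rats (n = 3) and 0.48 to 0.71 in late proestrus rats (n = 5). All 13 later animals were thus above the early juvenile animals, which lay between -0.035 and 0.047, and late juvenile rats were the lowest of the later stages.

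The 82 called falls were also displaced in the later stages. Their median lay between -0.60 and -0.74 in juvenile rats, again by choice, between -0.38 and -0.52 in late juvenile rats, between -0.61 and -0.75 in early proestrus rats and between -0.45 and -0.79 in late proestrus rats. Late juvenile and late proestrus rats overlapped here, with late proestrus rats 11 and 13, at -0.46 and -0.45, within the late juvenile range. Early juvenile animals lay between -0.064 and 0.047. Over all probes tested the same median stayed between -0.0189 and 0.0086 on every array. Quantile normalization, which gives all arrays 1 distribution, keeps this median small by itself. Since the early juvenile arrays serve as the base and also chose the probes, these values are a description with no test.

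**Figure D5:**
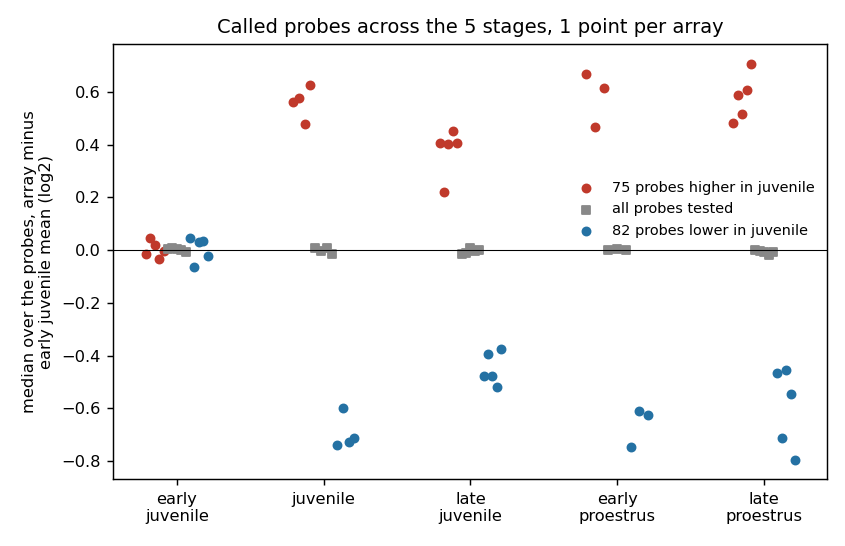
Median over the 75 called rises (red), the 82 called falls (blue) and all tested probes (grey squares) of the level on each array minus the probe's early juvenile mean (log2, vertical axis), by stage (horizontal axis), 1 point per animal. Both called sets stay displaced from 0 on all 13 arrays of the 3 later stages. For the rises the late juvenile animals, at 0.22 to 0.45, lie below all other later animals, and for the falls they overlap late proestrus. All tested probes stay between -0.0189 and 0.0086, a range kept narrow by quantile normalization.

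The named probes differed in their levels in the later stages, which overlap in age. ILMN_1352660 stayed low, with a mean level of 6.69 ± 0.52 (SD, n = 5) in late juvenile, 6.82 ± 0.45 (SD, n = 3) in early proestrus and 7.20 ± 0.23 (SD, n = 5) in late proestrus rats. ILMN_1355623 held near its juvenile level, at 7.83 ± 0.37 (SD, n = 5) in late juvenile rats and 7.84 ± 0.69 (SD, n = 3) in early proestrus, and stood at 9.80 ± 0.31 (SD, n = 5) in late proestrus, where its raw intensity ran from 959.2 to 1459. The range of the late proestrus animals did not overlap that of any earlier stage.

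ILMN_1366573 was lower in late juvenile rats, at 6.36 ± 0.16 (SD, n = 5), than its juvenile mean of 7.01 ± 0.39 (SD, n = 4), and reached 7.06 ± 0.20 (SD, n = 5) in late proestrus. All 5 late juvenile animals, at 6.18 to 6.60, lay below the lowest juvenile animal, at 6.69. ILMN_1351340 was spread from 5.44 to 7.86 among the late juvenile rats, with 3 of 5 arrays detecting it, and averaged 6.09 ± 0.21 (SD, n = 5) in late proestrus, where all 5 detected it. These levels of single probes were not tested between stages.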

How the data were processed

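RNA of whole hypothalamus was measured on Illumina bead arrays, 1 per rat. Per the labels, RNA was column-purified and amplified into biotin-labelled cRNA. The authors deposited a non-normalized intensity per probe and a detection p-value for each, per the file headers; the p-values take 825 equal steps. A second deposited table of intensity by the authors kept the rank order of the raw values on every array (Spearman correlation of 1) with 1 shared maximum of 62830 and medians from 213.7 to 216.5. Its values are on a linear scale and not centred, and how they were normalized is not given. No source used here names the scanner software.

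The 9 arrays were corrected and normalized together with neqc (limma 3.58.1, R 4.3.3), in which background is inferred through the detection p-values and subtracted by a normal plus exponential model, an offset of 16 is added, and log2 is taken after quantile normalization. Differences of dim probes are shrunk by the offset. All tested probes entered lmFit and eBayes, a two-sided moderated test, with Benjamini-Hochberg adjustment over 11231 probes. The number of arrays limits the precision. The members, lists and rules were chosen with earlier results of these data known. Without gene names, the planned gene lists are not analysed here, and the rule for named probes took the 2 largest called rises and 2 largest called falls whose probe was detected on every array of the higher group. Replicate numbers are animal numbers and are not shared between groups. Alternatives were other background corrections, scalings, filters, sets of arrays, array weights, a brightness covariate and a minimum difference.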

Additional observations from a re-analysis of the deposited data

Results flagged for a closer look

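Within each age the highest and the lowest animal were set against the others for mean raw signal, detected share and the 4 named probes. Of 12 such groups of values, 2 held an animal far from the rest, where chance flags about 5% of groups. ILMN_1351340 was at 6.20 in early juvenile rat 168, against 8.05 ± 0.11 (SD) in the other 4 early juvenile animals. The mean raw signal of early juvenile rat 165 was 1000.2, against 844.6 ± 16.1 (SD) in the other 4.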

How the results depend on the processing

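Only 1 of 23 other settings kept the count within 1.5 times the 157 calls (75 higher, 82 lower), the brightest probe per target, which gave the same number. No background correction gave 436 (203 higher, 233 lower), the authors' processed values 431 (205 higher, 226 lower), median scaling 96 (13 higher, 83 lower), no filter 61 (24 higher, 37 lower) and a detection p-value under 0.01 on all 9 arrays 309 (159 higher, 150 lower). The 22 arrays of all stages gave 270 (128 higher, 142 lower). All 24 arrays gave 0 in limma, where 356 had an unadjusted p under 0.05. The 10 arrays with juvenile rat 4 also gave 0, where 576 did. Array weights gave 850 on 10 arrays (385 higher, 465 lower) and 799 on 9 (360 higher, 439 lower), mean raw signal as a covariate 538 (239 higher, 299 lower), and a test against a minimum log2 difference of 0.2 (treat) 12 (3 higher, 9 lower). A variance trend with robust estimation, chosen after seeing the data, gave 401 (186 higher, 215 lower). Leaving out 1 array gave 14 to 563 calls, 3 to 248 higher and 11 to 315 lower. The strict filter left 8097 probes to adjust over and no filter 22523. Where no cause is named, it was not tested.

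Of the 157 probes 146 kept their direction in every one of the 23 settings that tested them, though they were chosen for difference on these arrays. A filter removed some of the 157 from some settings. At a detection p-value under 0.05, 124 of them were detected on all 9 arrays. The strict filter asks for a detection p-value under 0.01 on all 9, and 108 of the 157 were called there with the same direction. The 4 named probes were recomputed 90 times, with no change of direction and 26 lost calls. The lowest and highest adjusted p over settings were 0.000563 and 0.917 for ILMN_1355623, 0.0026 and 0.917 for ILMN_1366573, 0.000136 and 0.446 for ILMN_1352660, and 0.00111 and 0.446 for ILMN_1351340. The difference in mean raw signal ran from -96.8 to 66.8 with 1 array left out, the positive value being that without juvenile rat 5. The difference in detected share ran from -1.59 percentage points, without early juvenile rat 168, to -0.759. At -1.59 the exact permutation p of 0.0286 was the smallest that the arrays left allow, since the ages did not overlap there. No paired analysis was possible because the groups share no replicate number. The planned counts for gene lists were not run, since no gene names were given. Signal over background limits the dimmest probes.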
